A study of Mus musculus with 3 samples.

Results

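The set followed here holds 9 of the 55536 annotated genes in the deposited tables. Its members were chosen by name, as GENCODE M21 symbols, for their part in making and removing superoxide and nitric oxide: Cybb, Cyba, Ncf1 and Ncf4, which encode subunits of the phagocyte NADPH oxidase, Rac1 and Rac2, which encode small GTPases that switch it on, Nos2, the inducible nitric oxide synthase, and Sod1 and Sod2, the cytosolic and the mitochondrial superoxide dismutase. Each was found under 1 gene identifier.

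The RNA came from bone marrow-derived macrophages (BMDM), cells grown in culture from C57BL/6J mouse marrow, exposed to lipid A at 100 ng/ml for 50 min. Lipid A is the part of bacterial lipopolysaccharide that Toll-like receptor 4 recognises. Total RNA of the cytosolic fraction was sequenced after removal of ribosomal RNA, in 3 libraries (replicates 1, 2 and 3) of this 1 group, and their gene expected counts summed to 33044910, 36769402 and 36522216. The labels give the libraries separate biosample records and 1 shared donor label, without saying whether these were separate animals or cultures, so a p-value reflects no more than how far these samples differ, and that spread may be technical. No unstimulated sample was analysed here, and no value is a response to lipid A. In bulk RNA, fewer cells of a type and less RNA per cell cannot be told apart.

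The phagocyte oxidase is a membrane-bound enzyme that passes electrons from NADPH across the membrane to oxygen, which gives superoxide. Its catalytic subunit (Cybb) sits in the membrane with a stabilising partner (Cyba), and activation brings cytosolic subunits (among them Ncf1 and Ncf4) and a GTP-bound Rac protein to it. Superoxide dismutases turn superoxide into hydrogen peroxide, and nitric oxide made by Nos2 from arginine is a second antimicrobial product of mouse macrophages.

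The macrophage label matched its markers. Of 10 macrophage markers 9 reached 1 TPM in each library (a transcript's share of all transcripts in a library, adjusted for length), with a summed level of 6690 to 10053 TPM. Most of that sum was Lyz2, at 7107, 4844 and 7296 TPM in libraries 1, 2 and 3. Neutrophils carry the same oxidase, and 12 neutrophil markers had a sum of 51.2 to 68.3 TPM. Of these, 4 reached 1 TPM in each library, namely S100a9 (19.8 TPM), Csf3r (19.7 TPM), S100a8 (11.9 TPM) and Ngp (4.62 TPM). The other markers all averaged under 1 TPM, from Ltf at 0.887 TPM down to Ly6g with no count. Among them, Elane and Mpo averaged 0.250 and 0.193 TPM, and Cxcr2 and Retnlg 0.0733 and 0.0133 TPM. The part of neutrophil RNA in the levels of the oxidase genes was not tested. None of 8 T, B and NK cell markers reached 1 TPM (sum 0.04 to 0.18 TPM). The libraries differed in the share of TPM that fell to protein-coding genes, which held 38.4%, 26.6% and 34.8% in libraries 1, 2 and 3, and the median gene stood 0.48 and 0.40 (log2) higher in libraries 1 and 3 than in library 2. The TPM of all 9 genes was lowest in library 2, and each SD of TPM below includes this shift. RNAs known to stay in the nucleus were highest in library 2 for all 5 tested members of a list of 6. Malat1, the highest of them, had 647, 719 and 212 TPM in libraries 1, 2 and 3, so the sequenced fraction held such RNA. The test of variation described below called all 5, against 1.66% of all tested genes.

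Of the 9 genes, 8 were expressed at 30 TPM or more on average and 1, Nos2, was at the edge of detection. Cyba was the highest at 522 ± 65.6 TPM (SD, n = 3), which placed it at rank 71 of 22028 protein-coding genes. Cybb, Rac1 and Sod2 followed at 147 ± 24.8, 143 ± 32.9 and 133 ± 34.1 TPM, then Ncf1, Rac2 and Sod1 at 100.3 ± 24.8, 94.6 ± 33.9 and 94.5 ± 22.9 TPM, and Ncf4 at 30.5 ± 6.31 TPM. The median over all protein-coding genes was 0.197 TPM, and 9128 of them reached 1 TPM in each library.

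**Figure D1:**
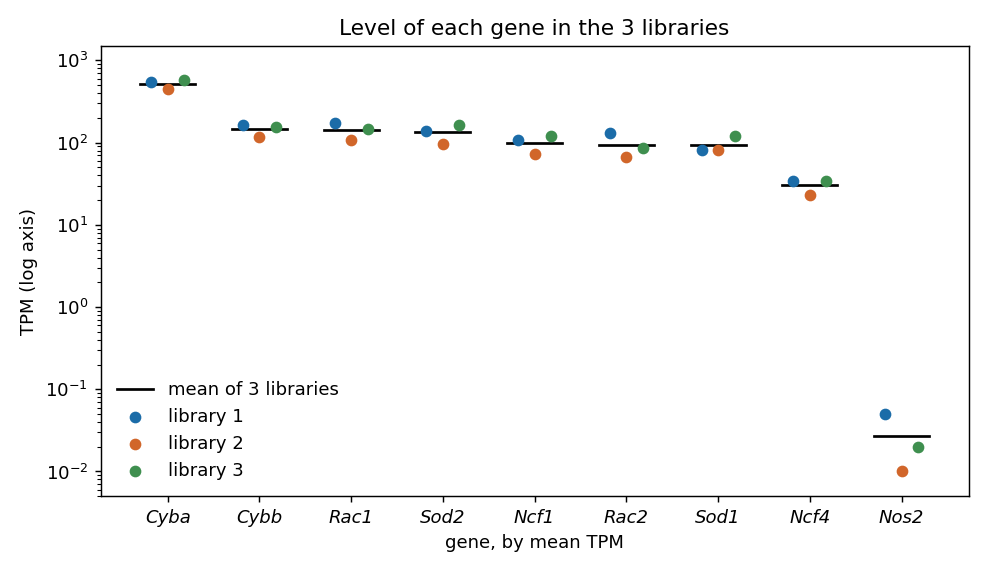
TPM of each gene (log axis) in libraries 1, 2 and 3 (points) with the mean of the 3 (line), genes in order of their mean. Cyba stands at 522 TPM, the other 7 expressed genes lie between 30.5 and 147 TPM, and Nos2 stands at 0.0267 TPM.

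In this order only some neighbours were set apart in every library. Cyba exceeded Cybb by 1.84 ± 0.12 on the log2 scale of TPM (SD, n = 3; positive in 3 of 3 libraries), Sod2 exceeded Ncf1 by 0.40 ± 0.03 (3 of 3) and Sod1 exceeded Ncf4 by 1.63 ± 0.31 (3 of 3). Ncf4 in turn was far above Nos2 in each. The place of Sod2 above Ncf1 rested on gene TPM. The coding transcripts with most counts, a comparison chosen after seeing the data, had the reverse order in each library. Sod2-201 had 22.7, 18.3 and 27.8 TPM in libraries 1, 2 and 3, and Ncf1-202 had 102, 67.8 and 114 TPM. By the same measure Cyba stayed above Cybb and Sod1 above Ncf4. The differences of Cybb over Rac1 (0.05 ± 0.10), Rac1 over Sod2 (0.11 ± 0.24), Ncf1 over Rac2 (0.11 ± 0.40) and Rac2 over Sod1 (-0.03 ± 0.64) were smaller than their SD and changed sign between libraries. These differences were not tested, because 3 signed values cannot reach an exact p under 0.05.

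The catalytic subunit Cybb (gp91phox, also called NOX2; ENSMUSG00000015340.10, mm10 chromosome X, 9435252 to 9487771, minus strand) had 166, 119 and 155 TPM in libraries 1, 2 and 3, on 31220, 32898 and 34420 expected counts. The order of the TPM values followed the shift of all genes. With TPM rescaled over protein-coding genes alone, Cybb had 433, 446 and 447 TPM, a mean of 442 ± 7.81, and its FPKM (fragments scaled to transcript length and library size) varied by 2.25% between libraries against 16.9% for its TPM. One transcript, Cybb-201 with 13 exons, held 99.7% ± 0.133 of its counts. A stretch of its RefSeq promoter (GRCm38.p6, chrX:9469301-9469394, minus strand), from 70 bases before the start to 24 after it, is shown because it holds a match to GAGGAA, a core of sites bound by PU.1, a factor that myeloid cells depend on. Of the 5 promoters examined (Cybb, Cyba, Ncf1, Sod1 and Sod2), those of Cybb and Sod2 each hold 1 match, that of Sod2 lying 203 bases before the start. The match, in capitals, lies 10 bases into the transcribed part and reads on the opposite strand.
Cybb: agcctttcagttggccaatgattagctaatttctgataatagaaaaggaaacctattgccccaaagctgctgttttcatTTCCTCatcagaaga
Of 32851 mouse promoters of 300 bases, 28.3% hold GAGGAA on either strand, so a match is common. No binding was measured here.

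Cyba (p22phox, the membrane partner that stabilises the catalytic subunit; ENSMUSG00000006519.11, chromosome 8, 122424776 to 122432930, minus strand) had 540, 449 and 577 TPM on 11826, 14753 and 15528 counts. Cybb had more counts than Cyba but a lower TPM, a level per length: the main transcripts measure 4752 bases for Cybb-201 and 744 bases for Cyba-201, which held 97.9% ± 0.176 of the counts of Cyba. The log2 ratio of Cybb over Cyba was -1.70, -1.92 and -1.89 in libraries 1, 2 and 3, a mean of -1.84 ± 0.12 or 0.279 times the level of Cyba. The sign held in each library.

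Among the cytosolic subunits, Ncf1 (p47phox, the organiser that carries the others to the membrane; ENSMUSG00000015950.13, chromosome 5, 134220053 to 134229625, minus strand) had 107, 72.9 and 121 TPM on 11199, 11325 and 14933 counts. Its coding transcript Ncf1-202 held 95.8% ± 1.19 of the counts. Ncf1 shares 408 exonic bases with Gtf2ird2 on the opposite strand (2.69 TPM), so that a part of its counts is uncertain. Ncf4 (p40phox, which binds a phosphoinositide on phagosomes; ENSMUSG00000071715.12, chromosome 15, 78244801 to 78262580, plus strand) had 33.7, 23.2 and 34.5 TPM on 1195, 1498 and 1904 counts. Ncf1 exceeded Ncf4 in each library, with log2 ratios of 1.66, 1.65 and 1.81 and a mean of 1.71 ± 0.09, or 3.27-fold. Taken over the coding transcript with most counts of each gene, a comparison chosen after seeing the data, the ratio was 2.07 ± 0.21.

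Cybc1, a chaperone that the assembly of Cybb and Cyba needs, had 13.6, 11.6 and 15.2 TPM (mean 13.5 ± 1.79), below Ncf4 in every library. The subunit genes Cybb, Cyba, Ncf1 and Ncf4 were thus detected together with this chaperone, at levels from 13.5 TPM for the chaperone to 522 TPM for Cyba.

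Rac1 (expressed in nearly all cell types; ENSMUSG00000001847.14, chromosome 5, 143503634 to 143528036, minus strand) had 173, 108 and 147 TPM on 10227, 10067 and 10347 counts. Rac2 (largely restricted to blood cells; ENSMUSG00000033220.7, chromosome 15, 78559167 to 78572783, minus strand) had 132, 66.0 and 85.8 TPM on 7398, 6920 and 7501 counts. The log2 ratio of Rac2 over Rac1 was -0.39, -0.71 and -0.78, a mean of -0.63 ± 0.21, so Rac2 was lower in 3 of 3 libraries. In the second quantification the mean ratio was -0.28 ± 0.24, with 0.00, -0.43 and -0.40 in libraries 1, 2 and 3, so that Rac2 was lower there in libraries 2 and 3 only. The 2 proteins are near-identical (176 of 192 residues, 91.7%), but their coding sequences match at 448 of 575 aligned bases (77.9%) and share no run longer than 29 bases.

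The TPM of both genes leaned on short annotated transcripts. Rac2-201, the full coding transcript of 3038 bases, held 98.3% ± 0.323 of the counts of Rac2 but 55.0% ± 8.08 of its TPM, at 60.5, 38.3 and 52.5 TPM. The rest was nearly all Rac2-203, a fragment of 254 bases and 2 exons listed at 70.7, 27.3 and 32.9 TPM on 141, 88.4 and 113 counts. Its deposited effective length, the number of positions at which a fragment could start, was 46.8, 51.2 and 69.2 bases, so that each count weighed heavily in TPM. The higher TPM of Rac2 in library 1 was mostly this transcript.

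Rac1 showed the same with Rac1-204, a processed transcript (annotated without a coding frame) of 585 bases, which held 44.8% ± 1.02 of the TPM of Rac1 and 11.6% ± 0.833 of its counts. Of the coding transcripts, Rac1-202 had 91.8, 50.9 and 72.4 TPM and Rac1-201 had 5.20, 8.79 and 7.25 TPM. Rac1-202 was higher in each library. It contains an exon of 57 bases, 19 codons in frame, that Rac1-201 and Rac1-204 lack; this is the exon known in human RAC1 as 3b, whose inclusion gives a fast-cycling GTPase. The exon (mm10, chr5:143509597-143509653, minus strand) is in capitals below with 12 bases of each neighbouring exon, above the junction of Rac1-204 that skips it, where capitals mark the base on each side.
Rac1-202: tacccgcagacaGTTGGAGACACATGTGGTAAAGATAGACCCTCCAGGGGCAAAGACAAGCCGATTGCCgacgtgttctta
Rac1-204: tacccgcagacAGacgtgttctta
The coding transcripts also differ at the 3' end, with last exons of 1624 bases in Rac1-202 and 3472 bases in Rac1-201. Whether reads in the exon or at the 3' end assigned counts to Rac1-202 was not tested, and its TPM is therefore no measure of the inclusion of the exon. Rac1 also shares 2309 exonic bases with Daglb on the opposite strand (17.6 TPM), and 50.7% of its 31-base words occur there in reverse. The strand setting is not given in the sources used here, so reads of the 2 genes may have been split and the level of Rac1 is uncertain.

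Nos2 (ENSMUSG00000020826.8, chromosome 11, 78920787 to 78960254, plus strand) had 7, 2 and 3 counts, listed as 0.05, 0.01 and 0.02 TPM. The 12 counts over all libraries have an exact Poisson 95% interval of 6.20 to 20.96, or up to 0.197 CPM (counts scaled to library size), which covers counting error only. A count of 3, the limit that a count of 0 allows, corresponds to 0.0908, 0.0816 and 0.0821 CPM, and the 2 and 3 counts of Nos2 in libraries 2 and 3 do not exceed it. The neuronal and endothelial synthases were no higher: Nos1 had 0, 0 and 2 counts and Nos3 had 3, 2 and 2. The first quantification placed the Nos2 counts of libraries 1 and 2 on Nos2-203 and those of library 3 on Nos2-201, which at this depth does not separate the transcripts.

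Sod1 (the copper and zinc enzyme of the cytosol; ENSMUSG00000022982.10, chromosome 16, 90220754 to 90226329, plus strand) had 81.6, 81.1 and 121 TPM on 1449, 2176 and 2663 counts. Its coding transcript Sod1-201, of 641 bases, held 99.1% ± 0.516 of the counts. The processed pseudogene Gm8566 shares 5.34% of its 31-base words and was listed at 0.29 TPM. Sod2 (the manganese enzyme of the mitochondrial matrix, known as a target of NF-kB; ENSMUSG00000006818.5, chromosome 17, 13006846 to 13040063, plus strand) had 139, 96.2 and 164 TPM on 9492, 9820 and 12568 counts. Its annotated transcripts share 31-base words with Rps6ka2 (20.0% of them, 3.43 TPM) and with AC166110.4 (22.0%, listed at 0 TPM). In all, 1242 genes share words with Sod2 in the same direction (26.6% of its words). Cyba shares words with 653 genes in this way (7.30%) and Rac2 with 621 (4.03%). In reverse the shares were 2.19% for Sod2, 7.11% for Cyba and 4.22% for Rac2. The effect of shared words on the levels was not tested. In the 300-base promoter window of Sod2 neither GGGNNTTTC nor GGGNNTTCC was found on either strand, where 9.53% of promoters hold 1 of them. These are only some spellings of the NF-kB site, and other spellings were not searched. Of the other promoters examined, that of Ncf1 holds GGGNNTTCC 51 bases before its start. These letters in a window show no binding, nor does their absence show a lack of it.

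Which dismutase was higher depended on what was counted. By gene TPM the log2 ratio of Sod2 over Sod1 was 0.77, 0.25 and 0.44 (mean 0.48 ± 0.26, 1.40-fold), with Sod2 higher in 3 of 3 libraries. Over the coding transcript with most counts of each gene, a comparison chosen after seeing the data, it was -1.84, -2.15 and -2.12 (mean -2.04 ± 0.17), with Sod2 lower in 3 of 3. The coding transcript of Sod2, Sod2-201 with 5 exons and 5861 bases, had only 22.7, 18.3 and 27.8 TPM, or 17.4% ± 1.38 of the TPM of Sod2 and 61.9% ± 4.51 of its counts.

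**Figure D2:**
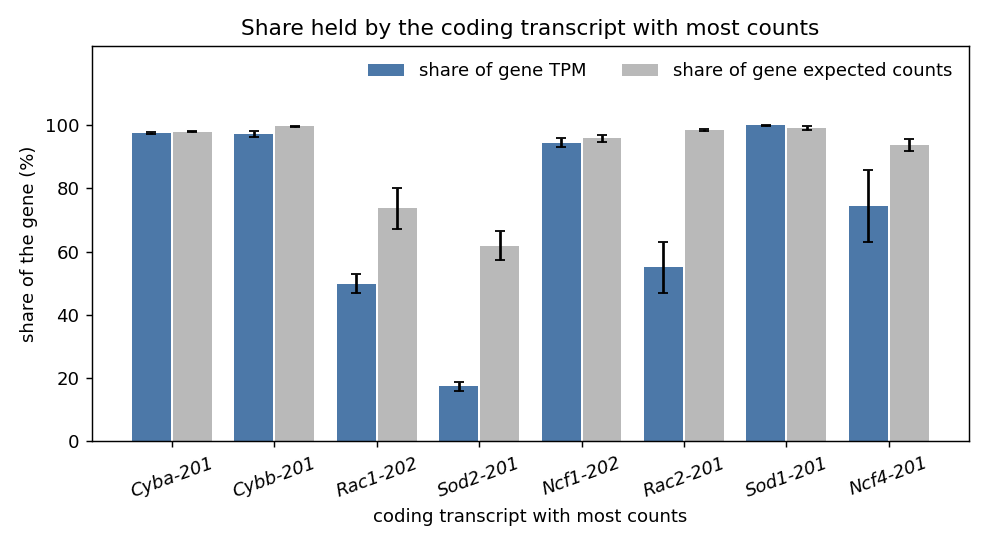
Share of each gene's TPM (blue) and expected counts (grey) held by its coding transcript with most counts, as the mean of 3 libraries with the SD as error bars. The 2 shares nearly coincide for Cyba, Cybb, Ncf1 and Sod1 and part for Sod2 (17.4% and 61.9%), Rac2 (55.0% and 98.3%), Rac1 (49.8% and 73.7%) and Ncf4 (74.3% and 93.7%).

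The largest share of the TPM of Sod2 was assigned to Sod2-207, a processed transcript of 1138 bases, at 93.8, 43.6 and 79.7 TPM. That was 67.6%, 45.4% and 48.7% of TPM in libraries 1, 2 and 3 (mean 53.9% ± 11.98), and 31.2% ± 6.46 of counts. Sod2-207 differs from Sod2-201 in 3 ways: it lacks the first exon, its version of exon 2 runs 47 bases longer, and its last exon ends after 591 bases where that of Sod2-201 has 5109. The bases of the longer exon are shown in capitals between 12 bases of exon 2 and 12 bases of exon 3 (mm10, chr17:13008375-13008433 up to the end of the capitals, plus strand).
Sod2-207: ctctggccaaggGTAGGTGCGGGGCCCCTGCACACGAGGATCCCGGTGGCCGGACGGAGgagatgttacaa
The transcript starts inside the coding part, and no annotated coding transcript of Sod2 ends where Sod2-207 ends. Whether the 47 bases or the early 3' end drew the reads was not tested.

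Transcripts annotated as retained intron held 15.8%, 35.3% and 34.1% of the TPM of Sod2 in libraries 1, 2 and 3 (mean 28.4% ± 10.9) and 3.63%, 6.92% and 8.01% of its counts (mean 6.19% ± 2.28). In the second quantification their TPM share was 34.0% ± 10.7. The share was lowest in library 1 on each scale. The highest of the 4, Sod2-204, had 16.3, 19.3 and 40.0 TPM, with the authors' deposited interval bounds at 12.6 to 19.1, 16.0 to 21.6 and 35.3 to 42.8 TPM. Sod2-203 had 2.93, 10.9 and 14.7 TPM and Sod2-206 had 2.74, 3.67 and 1.11 TPM, while Sod2-208 was listed at 0 in each.

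The annotated RNA of each reads through a splice site, and the sites are shown with the intron's 2 terminal bases in capitals (mm10, plus strand). Sod2-204 runs 115 bases past the end of exon 3 (chr17:13010625-13010654), Sod2-206 runs 171 bases past the end of exon 2 (chr17:13008375-13008404), and Sod2-203 begins 180 bases before exon 3 (chr17:13010500-13010529).
Sod2-204: gagaacccaaagGTtggtataagctgctac
Sod2-206: ctctggccaaggGTaggtgcggggcccctg
Sod2-203: gtgcttattttatatttcAGgagatgttac
All are GT donors or AG acceptors. The donor read through in Sod2-206 is the same one that Sod2-207 passes by 47 bases, so reads in those bases fit both transcripts.

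**Figure D3:**
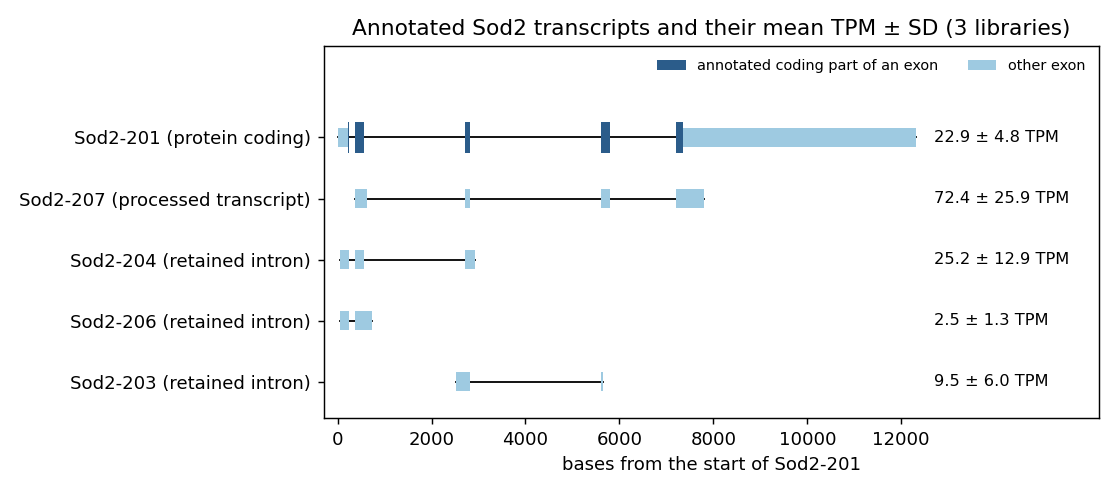
Annotated Sod2 transcripts in bases from the start of Sod2-201, with coding parts (dark), other exon sequence (light) and introns (lines), and at the right the mean TPM ± SD of 3 libraries. The long last exon is in Sod2-201 alone, which has 22.9 TPM against 72.4 TPM for Sod2-207 and 25.2 TPM for Sod2-204.

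Of the 9 genes, 5 have an annotated retained-intron transcript and passed 1 TPM in each library, as did 5811 genes in all. The median of their share of TPM was 1.48% over these genes. Sod2 stood above 94.1% of them by TPM (86.1% by counts) and Ncf4 above 92.7% (84.3% by counts), whereas Cybb, Ncf1 and Sod1 had 2.61% ± 1.007, 1.88% ± 0.498 and 0.103% ± 0.0555 of TPM. By counts the order of these 3 turned, with 0.334%, 0.392% and 0.934%, against a median of 0.709% over all such genes. In the second quantification their TPM shares were 5.96%, 3.99% and 0.111%. In Ncf4 the retained-intron share was 37.4%, 19.7% and 15.0% of TPM (mean 24.02% ± 11.8) but 5.31% ± 2.16 of counts. Much of it came from Ncf4-204, of 336 bases, at 10.6, 3.28 and 0.96 TPM on 51.6, 24.8 and 6.76 counts. The share of retained intron in TPM was highest in library 2 for 4 of the 5 genes and in library 1 for Ncf4, and 52.1% of the 5235 genes with a share above 0 also had their highest in library 2. By counts it was highest in library 2 for 3 of the 5 genes, in library 1 for Ncf4 and in library 3 for Sod2. Of the 5240 genes with a share above 0 by counts, 53.7% had their highest in library 2. The part of nuclear RNA, which was highest in library 2, in these shares was not tested.

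Variation between libraries was tested over all genes with edgeR 4.0.16 (chi-square goodness of fit of an intercept-only model with Benjamini-Hochberg adjustment, on expected counts). The spread it allows is the trend over genes of like abundance in these same libraries. It thus asks only whether a gene varied more than such genes, and a gene that is not called may still vary. The test called 203 of 12231 genes at an adjusted p under 0.05, which is 1.66%. Of the 8 genes that passed the filter on low counts 0 were called, and 1 of them, Sod1, had an unadjusted p under 0.05, as did 785 genes in all. DESeq2's size factors and dispersion trend in the same test also called 0 of the 8. Nos2 did not pass the filter. The log2 range over libraries had a median of 0.27 over the 8 genes and of 0.28 over all genes tested.

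Sod1 varied most. Its log2 CPM after TMM scaling was 5.45, 5.92 and 6.16, lowest in library 1 and highest in library 3, a 1.65-fold range. The edgeR p was 0.00704 and the adjusted p 0.247, and the adjusted p lay between 0.266 and 0.9998 over the 8 other settings tried. Ncf4 had the same order at 5.17, 5.39 and 5.68 (1.43-fold, adjusted p = 0.946). Cybb varied least, at 9.87, 9.84 and 9.86, a 1.02-fold range. For Rac2, the range of 0.20 in log2 CPM stood against a gene TPM of 66.0 to 132. The parts of Rac2-203 and of the shift of library 2 in this difference were not tested.

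**Figure D4:**
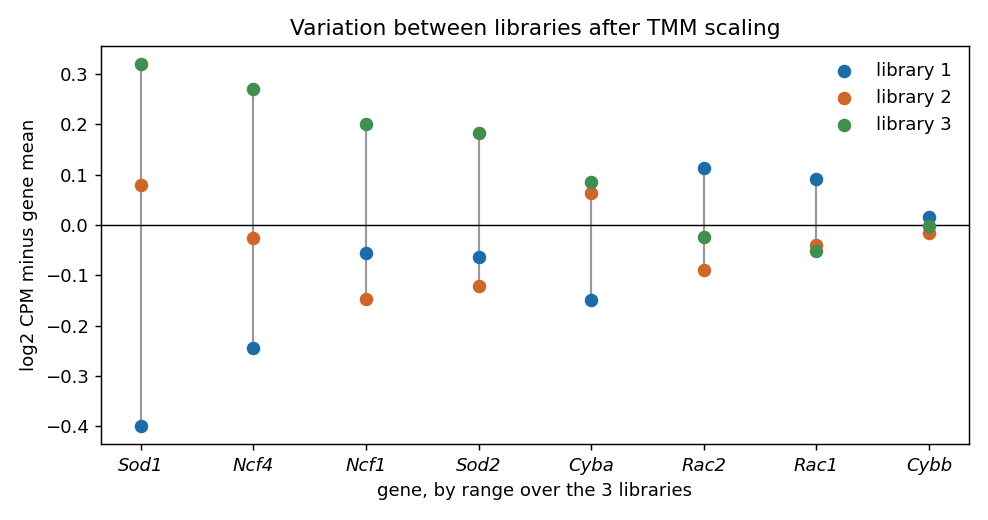
Log2 CPM of the 8 tested genes minus each gene's mean, in libraries 1, 2 and 3 (points), joined by a line over their range. Sod1 spans 0.72 and Cybb 0.03, and library 3 is the highest for Sod1, Ncf4, Ncf1, Sod2 and Cyba.

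The genes of 10 TPM or more whose pattern lay nearest, by Euclidean distance of centred log2 CPM over the 3 libraries, were for Cybb the genes Colgalt1 (0.0035), Cat (0.0046) and Mapk1ip1l (0.0055), out of 4529. For Sod2 they were Fgd2 (0.0052), Parp14 (0.0065) and Slc25a45 (0.0104). With 3 points this measure separates little: 1130 genes lay within 0.1 of Cybb and 176 within 0.1 of Sod2.

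The related lists place the 9 genes in their pathways. None of the tested members of these lists was called as varying (0 of 9, 0 of 11 and 0 of 8), against 1.66% of all tested genes. At that share, lists this short may well hold no call. Of 17 partners of NADPH oxidases, 8 were at 1 TPM or above in all libraries and for 6 no library had a count. The highest were Arhgdia and Arhgdib, which hold Rac proteins inactive in the cytosol (266 ± 73.0 and 154 ± 37.2 TPM), Prkcd, a kinase that phosphorylates the Ncf1 protein (59.2 ± 11.5 TPM), and Hvcn1, a proton channel that balances the charge the oxidase moves (44.0 ± 11.0 TPM). The other catalytic oxidases were near 0: Nox3, Duox1 and Duox2 were among the 6 with no count, and Nox1 and Nox4 averaged 0.0400 and 0.0133 TPM.

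Of 16 genes of nitric oxide, arginine and tetrahydrobiopterin metabolism, 8 were at 1 TPM or above in all libraries. Those with the most were Qdpr, which recycles the synthase cofactor tetrahydrobiopterin (25.5 ± 2.81 TPM), Pts, which helps make it (15.5 ± 2.46 TPM), Nosip, a protein that binds nitric oxide synthases (13.4 ± 2.37 TPM), and Asl, which regenerates arginine (11.5 ± 2.09 TPM). Cofactor genes were thus detected in cells with 12 Nos2 counts in all. Arg1, the arginase that competes for arginine, was the 1 member with a count of 0 in each library.

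Of 9 genes that act beside or after the dismutases, 8 reached 1 TPM in each library. Gpx1, a glutathione peroxidase, stood at 516 ± 29.2 TPM, near Cyba, followed by the peroxide scavenger Prdx5 (94.1 ± 12.1 TPM), catalase (Cat, 69.1 ± 12.2 TPM) and the mitochondrial thioredoxin Txn2 (39.7 ± 7.63 TPM). The extracellular dismutase Sod3 had 0, 0 and 1 counts.

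**Figure D5:**
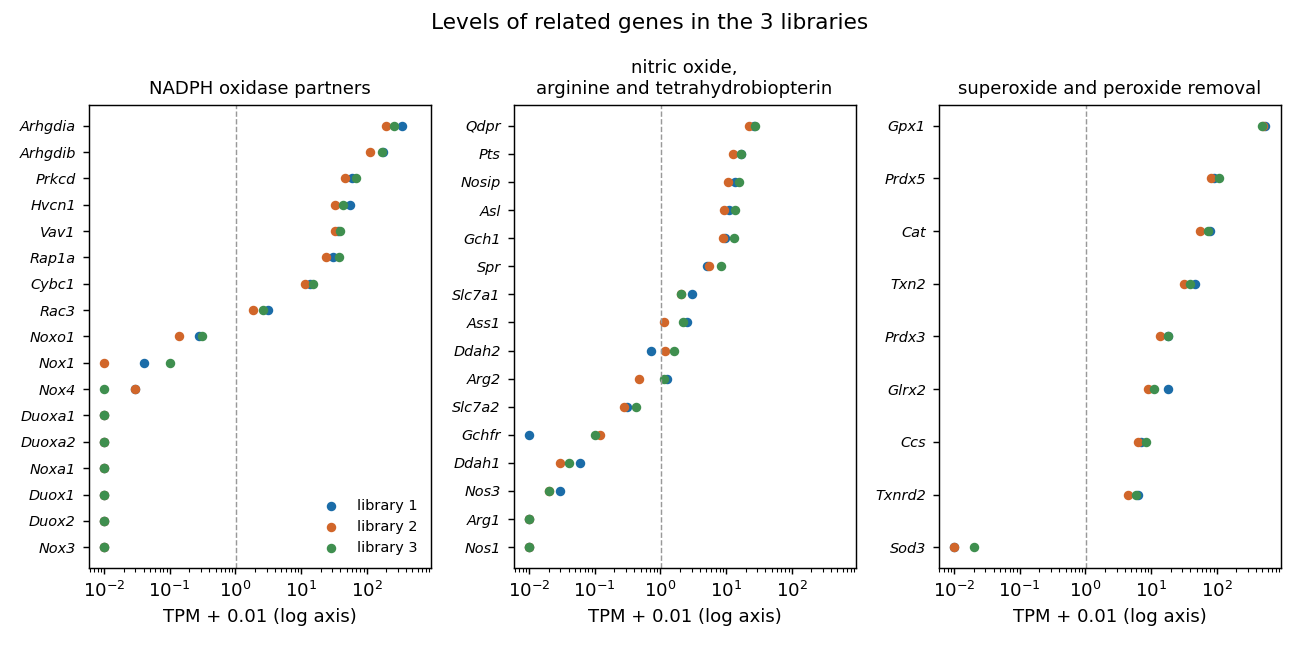
TPM + 0.01 (log axis) of the genes of the 3 related lists in libraries 1, 2 and 3 (points, which overlap where values are equal), with a dashed line at 1 TPM. Gpx1 and Arhgdia stand at 516 and 266 TPM, while Sod3, Nos1, Nos3 and 6 of the 17 oxidase partners are among the genes at or near 0.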

How the data were processed

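The 9 genes, the related lists and the tests were chosen with earlier results of these data known. Per the labels and the deposited notes, the authors used mm10 and the GENCODE M21 annotation, library by library. They deposited a gene and a transcript table with expected counts, TPM, FPKM and interval bounds for TPM, and a second transcript table with estimated counts and TPM. The aligner, quantification tools and strand setting were not given in the sources used here. Levels are means of deposited TPM with SD over 3 libraries. Expected counts were rounded and tested with edgeR 4.0.16 in R 4.3.3 (filterByExpr, TMM, trended dispersion, residual deviance on 2 degrees of freedom, log2 CPM with a prior count of 0.5). DESeq2 1.42.0 gave alternative scaling. On simulated counts of 12231 genes, the edgeR test found 24 of 100 genes that were shifted 2-fold in 1 library. It found 98 of 100 shifted 4-fold, with 3 calls among 12031 others. Every simulated gene had the same dispersion, and the shifted genes were drawn from those above a set mean count. Names and coordinates (1-based) came from GENCODE M21, and promoters from RefSeq (GRCm38.p6), which gave 5 of the 9 genes. Named genes were the 9, the 4 highest of each related list by mean TPM, Cybc1, Nos1, Nos3 and Sod3, genes that overlap or share sequence with the 9, and the 3 nearest to Cybb and Sod2. Other oxidase genes, Arg1, Lyz2, Malat1 and the neutrophil markers were named after their values were seen. Python 3.11.15, pandas 2.3.3, scipy 1.17.1 and matplotlib 3.10.9 did the rest. An item of the related lists is not reported here.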

Additional observations from a re-analysis of the deposited data

How the results depend on the processing

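No paired analysis was possible because there is 1 group. The count of varying genes fell with fewer libraries, to 132, 91 and 89 without library 1, 2 or 3, and was 189 to 298 under the other 5 settings. None of these 8 settings called any of the 8 tested genes, nor Nos2, which was tested only without the filter on low counts. The log2 ratio of Sod2 over Sod1 was 0.48 by gene TPM and reversed to -2.04 over the coding transcript with most counts and to -0.82 in counts per kilobase of that transcript. These last 2 settings were chosen after seeing the data, and by construction they leave out short transcripts or ignore their length. In counts per kilobase the ratio was -1.44 for Cybb over Cyba, 2.15 for Ncf1 over Ncf4 and -0.88 for Rac2 over Rac1, and over the coding transcript it was 2.07 for Ncf1 over Ncf4. In the second quantification the ratio of Ncf1 over Ncf4 was 1.61 and that of Rac2 over Rac1 was -0.28; the cause was not tested. The retained-intron share was 6.19% of counts for Sod2 and 5.31% for Ncf4, where the shorter transcripts weigh less than in TPM. All other values of the 4 ratios and 2 shares moved by less than the SD between libraries. The levels of all 9 genes moved by more than 1 SD in both rescalings over protein-coding genes, for instance to 1586 TPM for Cyba and 398 TPM for Sod2 in the first, since the total they are shares of is smaller there. Transcript levels on few counts, such as those of Nos2, Rac2-203 and Ncf4-204, are limited by depth.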
